A study of Mus musculus with 6 samples.

Results

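The carnitine shuttle and the core of mitochondrial beta-oxidation were described here by 10 genes: Cpt1a, Slc25a20 and Cpt2 of the shuttle, Hadh, Hadha, Hadhb and Acaa2 of the oxidation cycle, and Etfa, Etfb and Etfdh of electron transfer. They were chosen by symbol out of 22180 genes measured, and each had 1 probe set that carried its symbol alone. Liver RNA of 6 male mice was hybridised to Affymetrix arrays, 1 array per mouse. Of these mice 3 were Balb/c, called WT in the labels, and 3 were Balb/cBy, a sister substrain called KD. All were 20 weeks old and lived in individual cages. Both groups had eaten a fat-rich diet (58% of the energy from fat) since the age of 8 weeks, for 12 weeks, and no group on another diet is part of the comparison. Which gene KD refers to is not stated. The Balb/cBy substrain is known for a spontaneous deletion in Acads, the short-chain acyl-CoA dehydrogenase. Replicates of a group are labelled as biological.

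Long-chain fatty acids cannot cross the inner mitochondrial membrane as CoA esters. CPT1 on the outer membrane swaps CoA for carnitine, the carrier SLC25A20 exchanges acylcarnitine for free carnitine, and CPT2 on the inner membrane restores the CoA ester. Each turn of the cycle then removes an acetyl unit, and the electrons of the first step pass through ETF and ETF dehydrogenase to ubiquinone. The liver uses this route in fasting and on fat-rich food to make ATP and ketone bodies, and many of its genes are targets of the lipid-sensing receptor PPARα.

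The regions just upstream of the genes are shown as a description. Whether they bear on the levels of the genes was not tested. RefSeq's table (GRCm38.p6) held a start region for 9 of the 10 genes, and the 250 bases before each start were searched on both strands. Hadha and Hadhb, the subunits of 1 enzyme complex, lie head to head with 272 bases between their starts, and 228 of these belong to both upstream windows (chr5:30155003-30155230). The upstream window of Etfa is chr9:55512244-55512493 on the minus strand, that of Etfdh chr3:79628768-79629017 on the minus strand, that of Slc25a20 chr9:108661886-108662135 on the plus strand and that of Cpt2 chr4:107923590-107923839 on the minus strand. Sequences are written 5′ to 3′. Capitals mark, on either strand, the CCAAT box (spelled CCAAT), the GC box (spelled GGGCGG), the ETS core (spelled CCGGAAG) and the NRF1 site.
Hadha and Hadhb (shared stretch, plus strand): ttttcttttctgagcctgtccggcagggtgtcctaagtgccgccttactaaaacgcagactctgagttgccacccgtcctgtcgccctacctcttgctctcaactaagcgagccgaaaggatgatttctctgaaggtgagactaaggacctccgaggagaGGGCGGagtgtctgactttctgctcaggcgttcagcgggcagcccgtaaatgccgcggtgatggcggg
Etfa: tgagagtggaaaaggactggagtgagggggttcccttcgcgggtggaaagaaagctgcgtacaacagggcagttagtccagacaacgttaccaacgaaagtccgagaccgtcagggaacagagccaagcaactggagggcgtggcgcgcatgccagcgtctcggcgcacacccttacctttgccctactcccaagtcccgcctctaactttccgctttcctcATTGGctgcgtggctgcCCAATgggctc
Etfdh: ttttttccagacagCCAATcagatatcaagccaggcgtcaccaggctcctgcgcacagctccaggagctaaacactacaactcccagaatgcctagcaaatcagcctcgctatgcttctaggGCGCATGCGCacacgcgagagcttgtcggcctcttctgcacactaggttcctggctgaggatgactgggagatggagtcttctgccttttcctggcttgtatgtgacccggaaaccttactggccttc
Slc25a20: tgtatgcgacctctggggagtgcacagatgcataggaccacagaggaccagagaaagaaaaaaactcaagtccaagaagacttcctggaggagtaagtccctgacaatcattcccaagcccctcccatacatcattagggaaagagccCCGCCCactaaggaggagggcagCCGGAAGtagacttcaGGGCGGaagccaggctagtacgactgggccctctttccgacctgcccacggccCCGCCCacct
Cpt2: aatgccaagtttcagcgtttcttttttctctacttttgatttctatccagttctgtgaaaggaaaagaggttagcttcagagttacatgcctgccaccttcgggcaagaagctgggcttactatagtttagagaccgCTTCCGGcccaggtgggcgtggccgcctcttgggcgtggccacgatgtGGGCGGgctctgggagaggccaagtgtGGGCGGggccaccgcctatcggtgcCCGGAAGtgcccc

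The CCAAT letters occurred upstream of 5 of the 9 genes, Cpt1a, Hadh, Etfa, Etfb and Etfdh, against 33.8% of 32851 start regions. All genes of electron transfer were among them. The GC box occurred upstream of 6 of 9, among them Cpt1a, Slc25a20 and Cpt2 of the shuttle and, in the shared stretch, Hadha and Hadhb, against 32.7% of start regions. The NRF1 site lay upstream of Etfb and Etfdh (3.74% of start regions) and the ETS core upstream of Cpt2 and Slc25a20 (6.91%). TATAAA (12.4% of start regions), TGACGTCA (1.55%), AAGGTCA (4.08%) and the DR1 element, the spaced repeat bound by PPARα with its partner RXR (0.0335%), were found in none of the 9 windows; the last can overlap AAGGTCA, and no other searched motifs overlapped in these windows. These matches describe letters in a short window and draw no line to a factor.

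Values are log2 levels as deposited, and differences are Balb/cBy minus Balb/c with limma's moderated standard error (SE). None of the 10 genes passed limma's adjusted p of 0.05, and 0 had an unadjusted p under 0.05. Over the whole array 0 of 23521 probe sets passed (0% called), and 899 (3.82%) had an unadjusted p under 0.05. In all 10 genes the groups overlapped, while the groups did not overlap in 7.83% of all genes. Of the 779 genes with a mean log2 level of at least 11, 99 did not overlap and 77 had an unadjusted p under 0.05 by limma. The differences ran from -0.24 for Etfa to 0.05 for Cpt2. With 3 against 3 arrays an exact permutation test cannot give a p under 0.1, so the tests rest on limma's model.

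**Figure D1:**
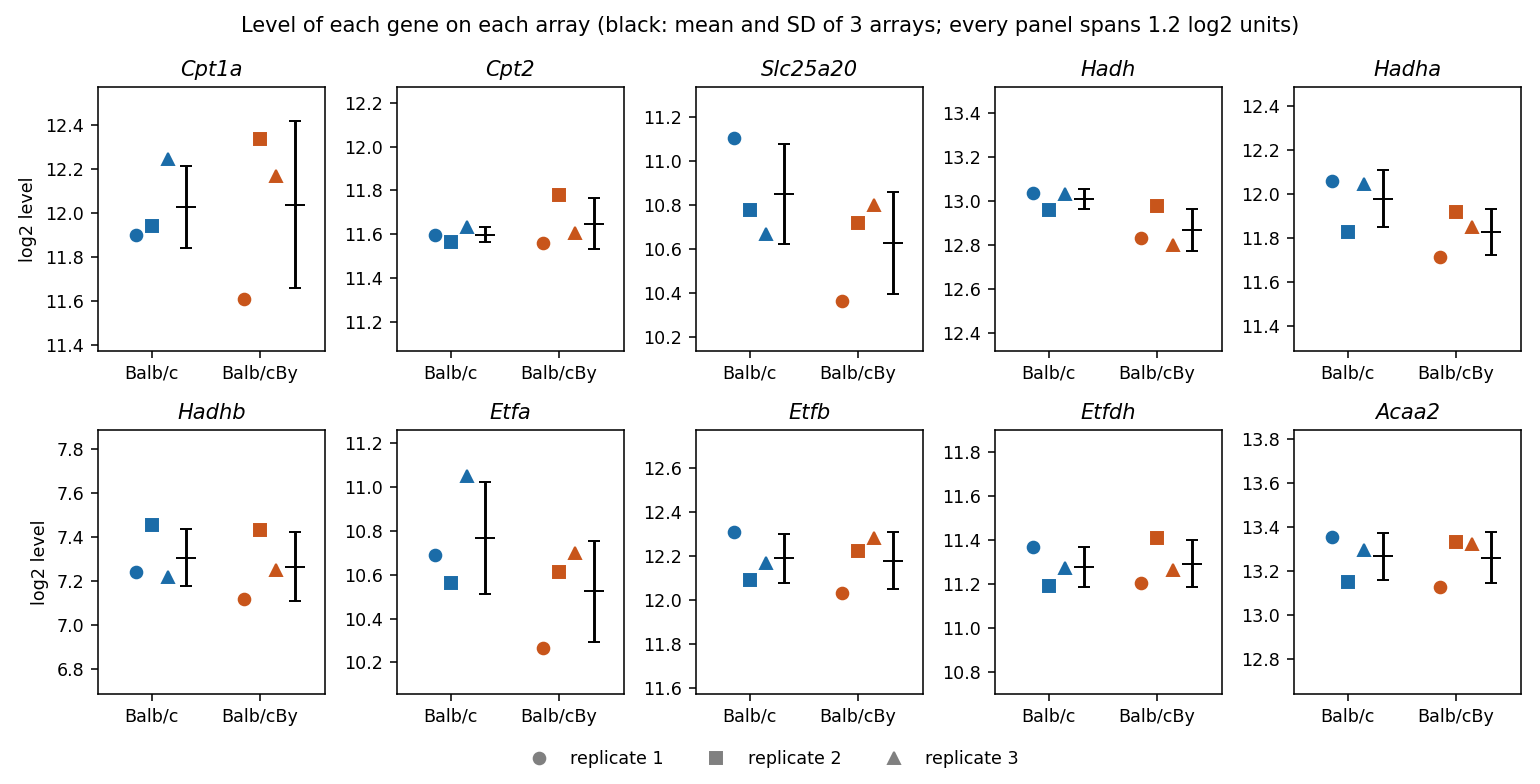
Log2 level of each of the 10 genes on each array, Balb/c in blue and Balb/cBy in orange, with the replicate number as the symbol and the mean and SD of 3 arrays in black. All panels span the same height, so the wide scatter of Cpt1a, Slc25a20 and Etfa can be set beside the narrow scatter of Cpt2 and Hadh, and the groups overlap in every panel.

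Cpt1a encodes the liver form of CPT1, the rate-limiting step of long-chain fatty acid entry, which malonyl-CoA inhibits. Its log2 level was 11.90, 11.94 and 12.24 in Balb/c and 11.61, 12.33 and 12.17 in Balb/cBy. The Balb/cBy arrays thus held both the lowest and the highest value of the gene. The means were 12.03 ± 0.19 (SD, n = 3) and 12.04 ± 0.38 (SD, n = 3), and the difference was 0.01 ± 0.19 (SE, 95% interval -0.43 to 0.45). On the linear scale this interval runs from -25.7% to 36.3%, the widest of the 10 genes. The within-group SD of Cpt1a was larger than that of 92.2% of all genes.

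Slc25a20, the carnitine-acylcarnitine carrier of the inner membrane, read 11.11, 10.78 and 10.67 in Balb/c and 10.37, 10.72 and 10.80 in Balb/cBy. One end of the range was Balb/c replicate 1 and the other Balb/cBy replicate 1, while the remaining arrays lay close together. The difference was -0.22 ± 0.16 (SE, 95% interval -0.58 to 0.13). Without Balb/cBy replicate 1 it was -0.09 ± 0.14 (SE).

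Cpt2, which returns the acyl group to CoA in the matrix, read 11.60, 11.56 and 11.63 in Balb/c and 11.56, 11.78 and 11.61 in Balb/cBy. Apart from Balb/cBy replicate 2 the arrays were alike. The difference was 0.05 ± 0.10 (SE, 95% interval -0.17 to 0.27). The log2 level of Cpt1a minus that of Cpt2 within an array differed between the groups by -0.04 (exact permutation p = 0.8, 0.8 adjusted over 4 partner pairs, two-sided), and by 0.13 without Balb/cBy replicate 1.

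Hadh is the matrix hydroxyacyl-CoA dehydrogenase for medium and short chains. Its log2 level was 13.04, 12.96 and 13.03 in Balb/c and 12.83, 12.97 and 12.80 in Balb/cBy. The overlap came from 1 array, Balb/cBy replicate 2, which lay just above the lowest Balb/c array. The difference was -0.14 ± 0.09 (SE, 95% interval -0.35 to 0.07, adjusted p = 0.999 by limma), the smallest unadjusted p of the 10 genes at 0.165. It kept its sign in all 16 alternative settings, from -0.19 to -0.11, with adjusted p-values of 0.648 and above.

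Hadha and Hadhb encode the α and β subunits of the mitochondrial trifunctional protein, which carries out the last steps of the cycle for long chains at the inner membrane. Hadha read 12.06, 11.83 and 12.05 in Balb/c and 11.71, 11.91 and 11.85 in Balb/cBy, a difference of -0.15 ± 0.11 (SE, 95% interval -0.40 to 0.09). Balb/c replicate 2 lay below 2 of the Balb/cBy arrays. Like Hadh, Hadha was lower in Balb/cBy in every alternative setting, from -0.23 to -0.06.

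The probe set of Hadhb was dim. It read 7.24, 7.45 and 7.22 in Balb/c and 7.12, 7.43 and 7.25 in Balb/cBy, below 8.02, the 95th percentile of 1105 olfactory receptor genes, taken as a stand-in for background, and above 83.2% of them. A probe set at this level may not be told from background here, so the Hadhb difference of -0.04 ± 0.12 (SE) carries little information on the subunit. Whether it reads the main Hadhb transcript was not tested. Across the 6 arrays its highest values were on the replicate 2 arrays of both groups, while Hadha was highest on Balb/c replicate 1. The log2 level of Hadha minus that of Hadhb differed between the groups by -0.11 (exact permutation p = 0.5, 0.667 adjusted over the 4 pairs), and the Hadhb side of that value has the same limit. It was -0.26 without Balb/c replicate 2. Leaving out Balb/c replicate 1 or Balb/c replicate 3 instead gave -0.04. The probe sets of Hadha and Hadhb had a Pearson r of 0.08 over the 6 arrays. This r is a description with the same limit, and the part of the shared upstream stretch was not tested.

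Acaa2, the matrix thiolase that releases acetyl-CoA from medium chains, read 13.35, 13.15 and 13.30 in Balb/c and 13.13, 13.33 and 13.32 in Balb/cBy. Each group held 1 low array, Balb/c replicate 2 and Balb/cBy replicate 1, and the other arrays were alike. The difference was -0.01 ± 0.10 (SE, 95% interval -0.24 to 0.23), or -15.5% to 17.6% on the linear scale.

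Etfa and Etfb encode the subunits of electron transfer flavoprotein, which takes electrons from the acyl-CoA dehydrogenases. Etfa read 10.69, 10.56 and 11.05 in Balb/c and 10.26, 10.61 and 10.70 in Balb/cBy. Its highest array was Balb/c replicate 3 and its lowest Balb/cBy replicate 1, and the other arrays of both groups lay between 10.56 and 10.70. The difference of -0.24 ± 0.16 (SE, 95% interval -0.61 to 0.13, adjusted p = 0.999 by limma) was the most negative of the 10 genes. Without these outer arrays, which also had the lowest array weights, it was 0.03 ± 0.11 (SE).

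Etfb read 12.31, 12.09 and 12.17 in Balb/c and 12.03, 12.22 and 12.28 in Balb/cBy, a difference of -0.01 ± 0.11 (SE, 95% interval -0.26 to 0.23). The log2 level of Etfa minus that of Etfb was -1.62, -1.53 and -1.12 in Balb/c and -1.77, -1.61 and -1.58 in Balb/cBy. The groups overlapped in this ratio, which differed by -0.23 (exact permutation p = 0.3, 0.6 adjusted over the 4 pairs). It was -0.08 without Balb/c replicate 3, -0.33 without Balb/c replicate 1 and -0.02 without both arrays of lowest weight.

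Etfdh encodes the membrane-bound dehydrogenase that hands the electrons of ETF to ubiquinone. It read 11.37, 11.19 and 11.27 in Balb/c and 11.20, 11.41 and 11.27 in Balb/cBy, with the groups spanning almost the same range. The difference was 0.01 ± 0.10 (SE, 95% interval -0.21 to 0.24). The log2 level of Etfa minus that of Etfdh differed by -0.26 between the groups (exact permutation p = 0.3, 0.6 adjusted over the 4 pairs). It ran from -0.36 without Balb/cBy replicate 3 to -0.11 without Balb/c replicate 3, with -0.17 without Balb/cBy replicate 1 and -0.028 without both arrays of lowest weight.

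**Figure D2:**
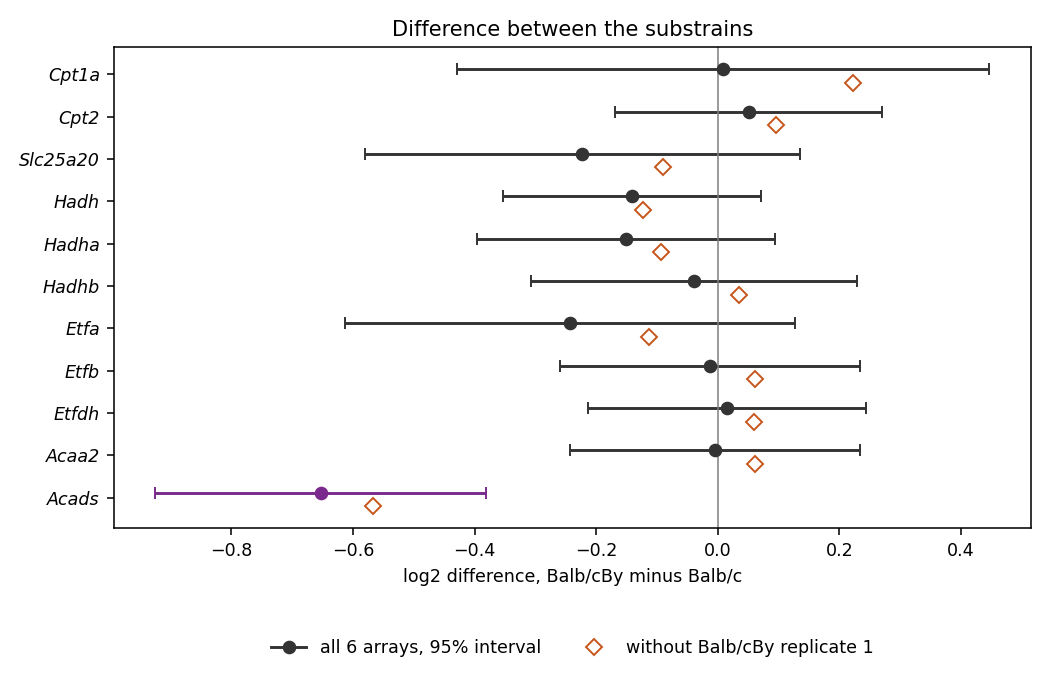
Log2 difference, Balb/cBy minus Balb/c, of the 10 genes and of Acads, as dots with 95% intervals from all 6 arrays and as open diamonds without Balb/cBy replicate 1. The intervals of the 10 genes include 0, from -0.61 at the lower end of Etfa to 0.45 at the upper end of Cpt1a, while that of Acads runs from -0.93 to -0.38.

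Of the 10 genes, 7 were lower in Balb/cBy and 3 higher, with 10 lower after renewed quantile normalization and 6 after median centring. The median difference was -0.03 and the mean -0.07. Without the dim Hadhb, 6 of 9 were lower, with a median of -0.01 and a mean of -0.08. Of all 22180 genes 50.9% were lower, with a median difference of -0.0028. Of the 779 genes with a mean log2 level of at least 11, 36.3% were lower and the median difference was 0.06.

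The small shift leaned most on 1 array. On Balb/cBy replicate 1 all 10 genes lay below their own mean of the 6 arrays, by 0.21 on average, and 8 of them had their lowest value there. Cpt1a, Etfa and Slc25a20 lay furthest below. On the same array 45.9% of all genes and 54.3% of the brighter genes lay below their own mean. The lowest value fell on it for 14.7% of all genes and 24.5% of the brighter genes. The other Balb/cBy arrays stood at 0.08 and 0.01, and the Balb/c arrays at 0.08, -0.04 and 0.07. Without Balb/cBy replicate 1 the mean difference of the 10 genes was 0.01, with 4 lower and 6 higher. It was -0.13, with 10 lower, without Balb/cBy replicate 2, and -0.11, with 8 lower, without Balb/c replicate 2. Balb/cBy replicate 1 also had the lowest array weight in limma, 0.471, against 0.635 to 2.47 on the others. Why this array stood low was not tested.

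**Figure D3:**
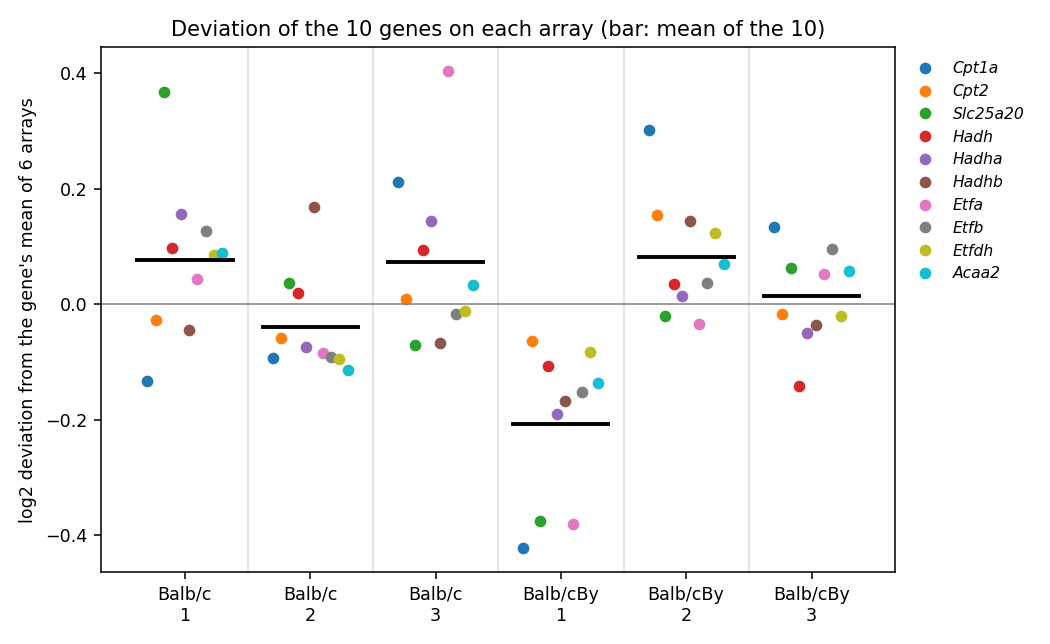
Deviation of each of the 10 genes from its own mean of 6 arrays, on the log2 scale, by array, with a bar at the mean of the 10 genes. On Balb/cBy replicate 1 all 10 points lie below 0 and their mean is -0.21, while the means of the other arrays lie between -0.04 and 0.08.

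The liver identity of the arrays was checked with markers. The mean log2 level of 8 hepatocyte markers, such as Alb and Ttr, was 13.00 to 13.11 in Balb/c and 13.05 to 13.21 in Balb/cBy. On Balb/cBy replicate 1 it was 13.05, inside the range of the other arrays but the lowest mean of the Balb/cBy group. Alb (14.16), Ttr (13.84), Cps1, Apoa1 and Cyp2e1 each had their lowest value on that array. Serpina1a and Tat did not, and Hnf4a had its highest value there. The 3 measured muscle markers, Ckm, Acta1 and Myh6, averaged 7.85 to 8.28 in Balb/c and 8.14 to 8.33 in Balb/cBy. In whole liver, fewer cells of a type and less RNA per cell cannot be told apart. Of the other cell types, the means of 4 lymphocyte markers (8.05 to 8.17 in Balb/c, 7.88 to 7.97 in Balb/cBy) did not overlap between the groups. The Balb/cBy means and 1 of the 4 genes lay under the olfactory receptor level of 8.02. The means of 4 neutrophil markers (6.68 to 6.96 and 7.02 to 7.21, 3 of the 4 genes under that level) did not overlap either. Singly, the groups did not overlap in 2 of the 4 genes of each list, Nkg7 and Cd79a and Retnlg and S100a8, against 7.83% of all genes. The means of 6 stellate cell markers, 9.34 to 9.71 and 9.57 to 9.92, overlapped. Singly, the groups did not overlap in 2 of these 6, Lum and Dcn. Lum differed by 0.53 ± 0.12 (SE, adjusted p = 0.586 by limma) and Dcn by 0.48 ± 0.14 (SE, adjusted p = 0.999 by limma). Reln, Lrat, Col3a1 and Col1a1 overlapped. The means of the Kupffer cell, endothelial, cholangiocyte and adipocyte markers overlapped between the groups as well. Of these markers Kdr, 1 of the 5 endothelial genes, did not overlap singly (-0.23 ± 0.13, SE). Under the olfactory receptor level were 3 of the 4 cholangiocyte, 2 of the 4 adipocyte and 1 of the 3 muscle markers. The part of these cells in the values of the 10 genes was not tested.

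The rest of the pathway was read from lists chosen by function, and for single genes the range without 1 array at a time is given where it is wide. Of 15 other enzymes of mitochondrial beta-oxidation 14 were lower in Balb/cBy and 1 higher, 0 passed in either direction, and the median difference was -0.09. Without Balb/cBy replicate 1 the split was 8 lower and 7 higher, with a median of -0.02. Acads stood at -0.65 ± 0.12 (SE), with arrays at 11.53, 11.46 and 11.28 in Balb/c and 10.60, 10.79 and 10.93 in Balb/cBy, and its adjusted p by limma was 0.319. Acadvl, the very-long-chain acyl-CoA dehydrogenase that precedes the trifunctional protein, differed by -0.18 ± 0.14 (SE). It ran from -0.26 without Balb/cBy replicate 3 to -0.04 without Balb/cBy replicate 1. Acot2, a mitochondrial thioesterase, differed by -0.18 ± 0.14 (SE), from -0.32 without Balb/c replicate 3 to -0.05 without Balb/c replicate 1. The 1 enzyme higher in Balb/cBy was Hsd17b10, a hydroxyacyl-CoA dehydrogenase that also serves isoleucine breakdown and mitochondrial tRNA processing. It stood at 0.21 ± 0.09 (SE, adjusted p = 0.999 by limma). The groups did not overlap in 2 of the 15 enzymes, Acads and Hsd17b10, against 7.83% of all genes.

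Upstream of the shuttle, 15 of 18 listed genes of fatty acid activation, uptake and carnitine handling were measured under a symbol of their own, which leaves out Acsl1, Acsl3 and Cpt1b. Of the 15, 12 were lower, 0 passed in either direction, and the median was -0.04. Without Balb/cBy replicate 1 or without Balb/c replicate 1 the split was 8 lower and 7 higher. Fabp1, the liver fatty acid binding protein, differed by -0.20 ± 0.13 (SE), from -0.28 without Balb/cBy replicate 2 to -0.08 without Balb/cBy replicate 1. Crot, the peroxisomal carnitine octanoyltransferase, scattered widely, from 11.29 to 12.40 in Balb/c and from 10.97 to 12.05 in Balb/cBy, with a difference of -0.33 ± 0.34 (SE). It ran from -0.64 without Balb/cBy replicate 1 to 0.0017 without Balb/c replicate 3. Tmlhe, the first enzyme of carnitine synthesis, differed by -0.20 ± 0.18 (SE), from -0.41 without Balb/c replicate 2 to -0.02 without Balb/c replicate 3.

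Downstream, 15 genes of ETF's other donors, of flavin and ubiquinone synthesis and of complex III were split into 9 lower and 6 higher (median -0.05; 12 lower after renewed quantile normalization), and 0 passed in either direction. Without Balb/cBy replicate 1 the split was 3 lower and 12 higher. Sardh and Dmgdh, dehydrogenases of one-carbon metabolism that also feed ETF, differed by -0.21 ± 0.14 and -0.16 ± 0.13 (SE). Sardh ran from -0.30 without Balb/cBy replicate 2 to -0.06 without Balb/cBy replicate 1. Dmgdh ran from -0.24 without Balb/c replicate 2 to -0.02 without Balb/c replicate 3. Etfbkmt, which methylates the β subunit of ETF, differed by 0.27 ± 0.19 (SE), from 0.16 without Balb/c replicate 3 to 0.49 without Balb/c replicate 1.

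Among 19 measured regulators 9 were lower and 10 higher (median 0.02), and 0 passed in either direction. The split was 11 lower and 8 higher (median -0.04) after renewed quantile normalization, and 6 lower and 13 higher (median 0.08) without Balb/cBy replicate 1. Ppara, the receptor that drives the pathway in fasting, read 10.43, 10.45 and 10.81 in Balb/c and 9.74, 10.27 and 10.54 in Balb/cBy. Its lowest value was again on Balb/cBy replicate 1, and the groups overlapped. The difference was -0.38 ± 0.20 (SE), -0.16 ± 0.15 (SE) without that array and -0.56 without Balb/cBy replicate 3. Tfam, which maintains and transcribes mitochondrial DNA, read 8.34, 8.37 and 8.47 in Balb/c and 7.91, 8.07 and 8.17 in Balb/cBy without overlap. The difference was -0.34 ± 0.10 (SE, adjusted p = 0.999 by limma). Tfam was dim, with a mean of 8.22 against the olfactory receptor level of 8.02, and Balb/cBy replicate 1 lay under that level. Nr0b2, a repressor induced by bile acids, differed by -0.44 ± 0.16 (SE), from -0.55 without Balb/c replicate 1 to -0.29 without Balb/c replicate 3. Creb3l3, a liver partner of PPARα, differed by -0.18 ± 0.10 (SE), from -0.22 without Balb/c replicate 1 to -0.12 without Balb/c replicate 3. The groups did not overlap in 3 of the 19 regulators, Tfam, Nr0b2 and Creb3l3, against 7.83% of all genes.

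Of 11 measured PPARα targets outside the pathway 6 were lower and 5 higher (median -0.03; 8 lower after renewed quantile normalization), and 0 passed in either direction. Acot1, a cytosolic thioesterase, differed by -0.42 ± 0.14 (SE), from -0.52 without Balb/c replicate 3 to -0.29 without Balb/c replicate 1. Ehhadh, the peroxisomal bifunctional enzyme, differed by -0.17 ± 0.14 (SE). Ehhadh ran from -0.32 without Balb/cBy replicate 2 to -0.05 without Balb/cBy replicate 1. Fgf21, a hormone secreted by the fasting liver, differed by -0.21 ± 0.10 (SE), from -0.24 without Balb/c replicate 1 to -0.14 without Balb/cBy replicate 3. The groups did not overlap in 2 of the 11 targets, Acot1 and Fgf21, against 7.83% of all genes. Both were dim, with means of 8.31 and 8.24 against the olfactory receptor level of 8.02. Acot1 on Balb/cBy replicate 1 (7.94) and Fgf21 on Balb/cBy replicate 3 (8.01) lay under it. Vnn1, a pantetheinase, differed by 0.41 ± 0.31 (SE) with 1 high array, Balb/cBy replicate 2. Without that array Vnn1 was at 0.0043, and without Balb/cBy replicate 1 it was at 0.61.

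**Figure D4:**
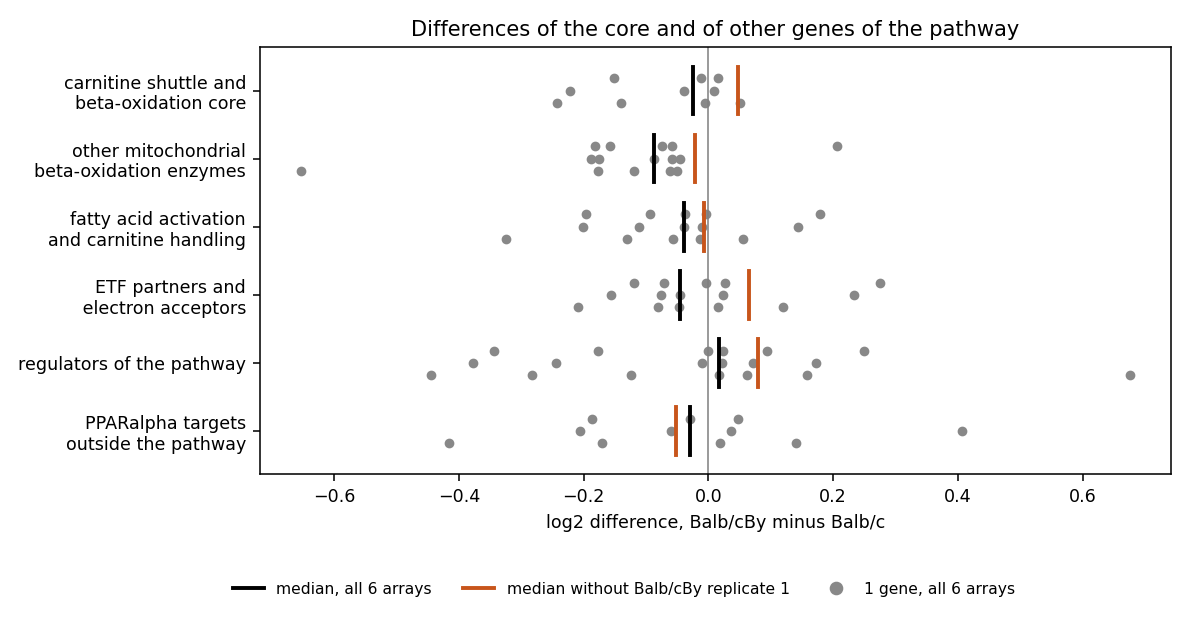
Log2 differences, Balb/cBy minus Balb/c, of single genes as dots in 6 groups of the pathway, with the median of each group from all 6 arrays in black and without Balb/cBy replicate 1 in orange. The median of the 10 core genes moves from -0.03 to 0.05 and that of the other mitochondrial beta-oxidation enzymes from -0.09 to -0.02.

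The 10 genes did not follow each other equally over the 6 arrays. What follows is a description over 6 arrays that share the substrain contrast. The Pearson r of a gene with the mean of the other 9 was 0.85 for Acaa2, 0.84 for Hadha and 0.75 for Etfb. It was lowest for Hadhb, at 0.33, whose probe set lay under the olfactory receptor level. The closest partners were Etfb and Acaa2, with r of 0.94. Cpt2 and Slc25a20, which act in sequence in the shuttle, had r of 0.07.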

How the data were processed

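Liver RNA of 3 Balb/c and 3 Balb/cBy mice was measured, 1 array per mouse, with groups taken from the labelled substrain. The deposited values are log2 levels per probe set, made by the authors with RMA per the submitters' processing notes, which corrects background, normalizes the arrays by quantiles and summarizes probes. The software and its genome build are not given in the sources used here. RMA compresses the low end of the scale, which understates differences there. The platform annotation gave 23521 of 41345 probe sets a lone gene symbol, and the highest-mean probe set stood for each of 22180 genes.

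The main test was limma (version 3.58.1, under R 4.3.3): 1 linear model per probe set with empirical Bayes moderation, two-sided p-values adjusted by Benjamini-Hochberg across the 23521, and a threshold of 0.05. The fit was tested on simulated data. Log ratios between partner genes were compared by exact permutation of the arrays, where the smallest possible p is 0.1 and no pair could pass. The number of arrays limits the precision. Start regions came from RefSeq (GRCm38.p6) and were searched with Python 3.11.15.

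The 10 genes and all lists were chosen with earlier results of these data known. Named were the 10 genes, up to 4 genes of each list with the smallest p, Acads, and the 5 genes whose pattern was most like the core's mean. Lpin1 was named for its scatter after its values were seen. The motifs, the group of genes with a log2 level of at least 11 and the olfactory receptor level were chosen after the data were seen. Alternatives changed the moderation, array weights, the replicate block, normalization, probe sets and arrays.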

Additional observations from a re-analysis of the deposited data

How the results depend on the processing

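None of the 10 genes and 0 other pathway genes passed limma's adjusted p of 0.05 in any of the 16 alternative settings; at an unadjusted p under 0.05 there was 1 of the 10 after renewed quantile normalization (Hadha) and 1 without both arrays of lowest weight (Cpt1a, at 0.33). Over the whole array, 31 probe sets passed with array weights, 16 without both arrays of lowest weight, and from 0 to 4 when single arrays were left out (4 without Balb/cBy replicate 1, 2 without Balb/c replicate 3). Without both arrays of lowest weight 4 of the 10 genes were lower in Balb/cBy, and their mean difference was 0.03. Without single arrays the number lower ran from 4 to 10 and the mean difference from -0.13 to 0.01. Of 159 single-gene values under these settings 24 had the opposite sign, all in genes short of the threshold; Slc25a20, Hadh and Hadha kept theirs throughout. With array weights Etfb was 0.0022, Etfdh -0.022 and Acaa2 0.0043. After renewed quantile normalization Cpt1a was -0.051, Cpt2 -0.011 and Etfdh -0.056, and with median centring Acaa2 was 0.0036. Without both arrays of lowest weight Etfa was 0.029, Etfb 0.049 and Acaa2 0.077, and the log ratio of Cpt1a to Cpt2 was 0.22. Without single arrays Cpt1a ran from -0.14 to 0.22, Cpt2 from -0.014 to 0.095, Hadhb from -0.12 to 0.036, Etfb from -0.063 to 0.060, Etfdh from -0.043 to 0.061, and Acaa2 from -0.064 to 0.061; the log ratio of Cpt1a to Cpt2 ran from -0.13 to 0.13. The causes of these changes were not tested. Replicate numbers did not pair the arrays (the deviations of same-numbered arrays had correlations of -0.32, -0.19 and -0.23), and with the replicate number as a block 0 of the 10 genes and 0 probe sets passed, the mean difference being -0.07 as before. Hadhb was left out where only brighter probe sets were tested. Where 1 array was left out, its group kept 2 arrays.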

Other observations

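Genes outside the core whose values over the 6 arrays were most like the mean deviation of the 10 genes were ranked by Pearson r among 10471 genes above the median level, of which 169 had an r above 0.9. The closest were Klhl5 (r of 0.992), a kelch-repeat protein, Tnks (0.991), the poly-ADP-ribosylating enzyme tankyrase, Plpp6 (0.984), a lipid phosphatase, Hpgd (0.984), which breaks down prostaglandins, and Samd8 (0.979), a ceramide phosphoethanolamine synthase. With so many genes and 6 arrays such values of r are a description only. In all 5 the lowest array was Balb/cBy replicate 1. The ranking itself favours this, because the mean of the 10 genes was lowest on that array. Hpgd read 11.14, 10.90 and 11.24 in Balb/c and 10.41, 11.13 and 11.06 in Balb/cBy.

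Lpin1, a coactivator of PPARα that also makes diacylglycerol, scattered most among the regulators. It read 10.99, 9.27 and 9.54 in Balb/c and 9.42, 11.45 and 10.96 in Balb/cBy, so both groups held high and low arrays.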
